A study of Pleurotus ostreatus with 53 samples.

Results

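The 10 copies of TIR1, the one DNA transposon family of the TIR class in the transposable element (TE) tables of the oyster mushroom Pleurotus ostreatus, were followed across strains and fruiting stages. They were taken by name from 1051 TE copies. The rule used no measured value, but it was set with earlier results of these data known. TIR elements carry terminal inverted repeats at both ends, and a complete copy encodes a transposase that binds those repeats, cuts the element out and inserts it elsewhere. Copies that have lost the transposase gene can still be mobilised by a transposase made from another copy. In fungi, transposons are commonly held silent by small RNAs cut from double-stranded RNA and by methylation of cytosines in the DNA.

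Polyadenylated mRNA, small RNA and bisulfite-treated DNA were sequenced in 6 groups with 3 biological replicates, except 2 for primordium in the bisulfite data, which made 53 libraries. PC15 and PC9 are monokaryons, with 1 kind of nucleus, sampled as mycelium. HyB, whose strain label is N001_HyB, is the dikaryon obtained by mating PC9 with PC15, also sampled as mycelium. The dikaryon N001, whose strain label reads N0001, supplied 3 tissues: mycelium, primordium (the young mushroom initial) and fruitbody. PC9 and PC15 are known from earlier work as the nuclei of N001 recovered in separate strains. No treatment is given for any group. Age, culture conditions and any pooling of mycelia or mushrooms are not given in the sources used here.

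Between 191411 and 5746479 small RNA reads per library lay in genes or TE copies, and each mRNA library had 19628882 to 30123572 mapped reads. Levels are given as RPM, reads scaled to a library of 1000000. In small RNA, replicates 2 and 3 were more alike than either was to replicate 1 in each of the 6 groups. Replicate 1 of PC9 was the deepest small RNA library, and in it and in replicate 1 of HyB the TIR share differed from that of the group's other libraries. Tests of TIR small RNA in PC9 are given with and without PC9 replicate 1, whereas group means hold all libraries. For TIR copies, leaving out HyB replicate 1 enters only the ranges given for 1 replicate left out. Reads were placed on the coordinates of the tables, whose genome build is not given in the sources used here. Presence of each copy in each strain was not tested. How the authors treated reads that match several places is also not given, so copies alike in sequence may share reads. All RNA came from bulk samples, in which fewer cells holding an RNA and less of it per cell cannot be told apart.

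The copies differed in length from 82 to 3731 bases (bp) and are named here by length. The 3731-bp copy lies on scaffold 2 at 1605772 to 1609503. Gene 165473, at 1607517 to 1608735, lies inside it and takes up 32.6% of its length, so that reads of this gene and of the copy are largely the same reads. The tables give the gene by number only, and its product is not named here. The copy also overlaps a Gypsy_9 piece at 1607013 to 1607468. Gypsy elements are retrotransposons with long terminal repeats.

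The 1453-bp copy lies on scaffold 2 at 2318110 to 2319563. The 1602-bp copy, on scaffold 1 at 3818119 to 3819721, lies wholly inside a Gypsy_5 copy at 3815535 to 3824268. The 1604-bp copy, on scaffold 8 at 372496 to 374100, meets Gypsy_25 pieces at both ends. Reads of these nested copies could likewise be counted for either element. The other 6 copies are short. They are 493 bp on scaffold 3 (1045632 to 1046125), 375 bp (1750956 to 1751331), 137 bp (1753125 to 1753262), 87 bp (2125690 to 2125777) and 82 bp (2200900 to 2200982) on scaffold 2, and 82 bp on scaffold 12 (252710 to 252792). Of the 10 copies, 6 lie on scaffold 2.

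All 10 copies passed the filter on low reads for small RNA and entered the test with 623 other TE copies. Methylation values existed in every library for 6 copies, and mRNA reads sufficed for 4. Small RNA reads over all libraries ranged from 2284 for the 375-bp copy to 1362395 for the 3731-bp copy.

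Small RNA of the TIR copies was close to absent in PC15 and abundant in every other group. The 10 copies together took 0.0262%, 0.00922% and 0.0115% of the gene and TE reads in the 3 PC15 libraries, from 345, 59 and 69 reads. They took 12.1%, 2.47% and 2.96% in PC9, 1.61%, 6.59% and 8.41% in HyB, and 13.4%, 11.6% and 11.1% in N001 mycelium. In primordium the shares were 12.4%, 18.1% and 18.2%, and in fruitbody 17.1%, 13.6% and 15.01%. The lowest library outside PC15 was replicate 1 of HyB, which still lay above every PC15 library. Replicate 1 of PC9 was several times above the other 2 PC9 libraries, and replicate 1 of HyB was well below the other 2 of HyB. The means were 0.0156% ± 0.00921 (SD, n = 3) in PC15, 5.85% ± 5.43 in PC9, 5.54% ± 3.52 in HyB, 12.04% ± 1.21 in N001 mycelium, 16.2% ± 3.32 in primordium and 15.2% ± 1.79 in fruitbody.

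**Figure D1:**
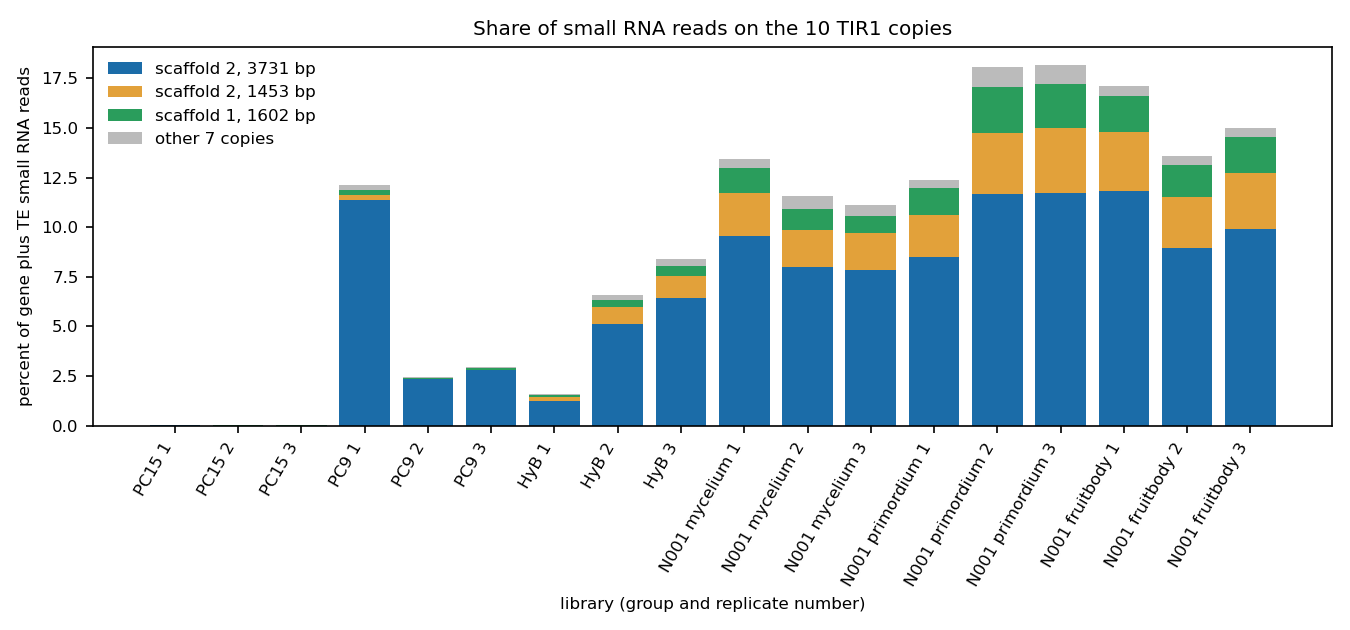
Percent of all gene and TE small RNA reads that fell in TIR copies, one stacked bar per library, with each colour a copy or set of copies. Bars of PC15 are too low to see (at most 0.0262%), those of N001 stand between 11.1% and 18.2%, and the 3731-bp copy makes up most of each visible bar.

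Read against TE reads alone, TIR copies held 35.6% to 41.3% in PC9, 2.33% to 14.8% in HyB and 35.2% to 45.9% over the 9 N001 libraries, from 10 of 1051 copies. In PC15 they held 0.0138% to 0.0383%. HyB thus lay below both PC9 and N001 in this share in every library, although its share of all reads overlapped that of PC9. The TE reads that this share divides by differed between groups. They were 56.9% to 69.1% of all reads in HyB, 32.3%, 6.93% and 7.17% in PC9, and 29.6% to 39.8% in N001. In PC9 replicate 1, the library with the high TE share, TIR copies held 37.5% of TE reads, inside the range of the other PC9 libraries.

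The 3731-bp copy, the longest and the only one that contains an annotated gene, carried most of this small RNA. Its level was 164, 12.5 and 8.31 RPM in PC15, 113673, 23432 and 28047 RPM in PC9, and 12652, 51289 and 64467 RPM in HyB. It was 95483, 79847 and 78487 RPM in N001 mycelium, 84805, 116725 and 117505 RPM in primordium, and 118273, 89509 and 98965 RPM in fruitbody. PC15 lay below all other groups with no overlap, and the other 5 groups overlapped except that each N001 library was above each HyB library. Means were 61.6 ± 88.6 RPM in PC15 and 55051 ± 50821 in PC9. HyB held 42802 ± 26930 RPM, N001 mycelium 84605 ± 9444, primordium 106345 ± 18658 and fruitbody 102249 ± 14660 (SD, n = 3 each).

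Among all 1051 TE copies, the 3731-bp copy ranked 1 by small RNA reads in every PC9 and N001 library and in HyB replicates 2 and 3. It ranked 8 in HyB replicate 1, and 172, 377 and 435 in PC15. Per kb, among the 434 TE copies of at least 1 kb, it ranked 1 in the same libraries and 4 in HyB replicate 1. Gene 165473 inside it showed the same order, with 120, 10.9 and 6.64 RPM in PC15 and a mean of 42225 ± 38948 RPM in PC9. Since both counts hold the same reads, the gene's level is not separate evidence.

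The makeup of the TIR small RNA differed between PC9 and the dikaryons. The 3731-bp copy held 93.9% to 94.9% of TIR reads in PC9, 76.7% to 78.7% in HyB and 64.6% to 71.2% in N001. In PC15 it held 62.6%, 13.6% and 7.25%, of few reads. The 1453-bp copy held 2.03%, 0.546% and 0.556% in PC9, against 12.1% to 12.96% in HyB and 16.1% to 19.1% in N001. The 1602-bp copy held 2.07% to 3.04% in PC9, 5.31% to 5.81% in HyB and 7.59% to 12.9% in N001. For all 3 copies the PC9, HyB and N001 ranges did not overlap. Outside PC15 they rest on 19438 or more TIR reads per library, and they are given as values, without a test. Because these are shares of 1 total, a lower share of the 3731-bp copy goes with higher shares of other copies. The 3 copies are therefore not separate evidence.

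The 1453-bp copy was the next most abundant. It measured 40.2, 46.9 and 56.5 RPM in PC15, 2459, 135 and 165 RPM in PC9, and 1938, 8368 and 10901 RPM in HyB. In N001 it measured 21596, 18734 and 18472 RPM in mycelium, 21294, 30780 and 32300 RPM in primordium, and 29600, 25939 and 28273 RPM in fruitbody. Every library of N001 exceeded every library of HyB, and PC9 replicate 1 lay inside the HyB range while the other 2 PC9 libraries lay far below it.

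The 1602-bp copy followed the same order. Its levels were 47.8, 21.9 and 24.9 RPM in PC15, 2504, 681 and 901 RPM in PC9, and 909, 3503 and 4886 RPM in HyB. They were 12529, 10420 and 8458 RPM in N001 mycelium, 13602, 23341 and 22360 RPM in primordium, and 18389, 16169 and 18172 RPM in fruitbody. Primordium lay above mycelium without overlap, but the difference did not pass the test (log2 difference 0.92, SE 0.72, edgeR adjusted p = 0.936).

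The 1604-bp and 493-bp copies were lower. The 1604-bp copy measured 1.52, 7.81 and 3.32 RPM in PC15, 882, 176 and 184 in PC9, 189, 982 and 1595 in HyB, and 491 to 1613 over the N001 libraries. The 493-bp copy measured 7.59, 3.12 and 21.6 RPM in PC15, 1067, 226 and 305 in PC9, 228, 551 and 663 in HyB, and 505 to 1130 over the N001 libraries. For both, PC15 was apart from all other libraries. The 1604-bp and 1602-bp copies are nearly equal in length, yet in N001 mycelium they held 931 ± 592 and 10469 ± 2036 RPM, with no overlap between libraries.

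The 5 shortest copies had 0 or 1 read per library in PC15. The 375-bp copy had 0 reads in PC15, 104, 16.5 and 27.5 RPM in PC9, 25.6, 102 and 119 RPM in HyB, and 190 to 347 RPM in N001. The 137-bp copy had 1 read in PC15, 31.1, 6.27 and 8.75 RPM in PC9, 42.2, 438 and 426 RPM in HyB, and 110 to 622 RPM in N001. For the 375-bp copy all N001 libraries stood above all HyB libraries, whereas for the 137-bp copy HyB and N001 overlapped throughout.

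The 87-bp copy had 0 reads in PC15 and 125 reads in PC9, all in replicate 1 (21.8 RPM). It measured 53.7, 354 and 516 RPM in HyB and 660, 1823 and 1447 RPM in N001 mycelium. The 82-bp copy of scaffold 2 had 0 reads in PC15 and measured 104, 7.06 and 1.25 RPM in PC9, 9.10, 257 and 381 in HyB, and 220, 2494 and 2048 in N001 mycelium. The 82-bp copy of scaffold 12 measured 235, 3.14 and 3.75 RPM in PC9, 26.5, 102 and 139 in HyB and 200, 466 and 447 in N001 mycelium. In these 3 copies nearly all PC9 reads came from replicate 1, while replicate 1 of HyB and replicate 1 of N001 mycelium were the lowest of their group.

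**Figure D2:**
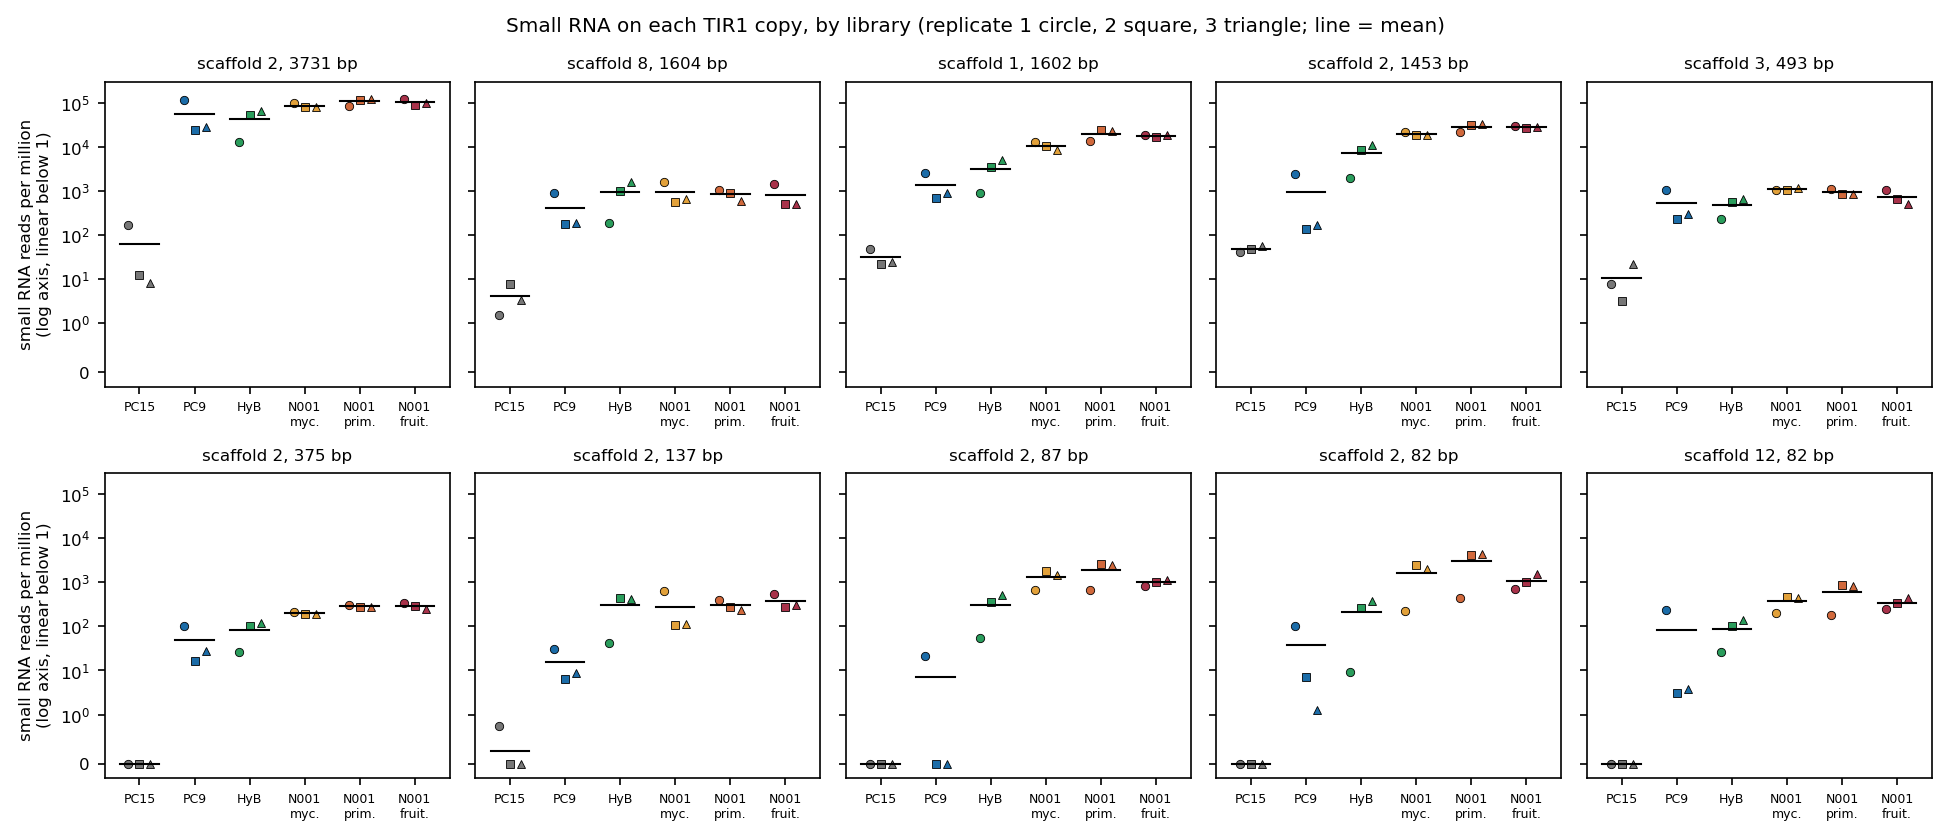
Small RNA level of each TIR copy in RPM (log axis, linear below 1), one panel per copy, with each point a library of the 6 groups. In each panel PC15 lies at the bottom, at 0 reads for 4 copies, and the 3731-bp copy reaches 118273 RPM in fruitbody.

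Per kb of copy, the short copies were not negligible. In N001 mycelium the 3731-bp copy held 22676 ± 2531 RPM per kb, the 82-bp copy of scaffold 2 held 19356 ± 14697, the 87-bp copy 15061 ± 6823 and the 1453-bp copy 13490 ± 1193. The 82-bp copy overlapped the other 3 over its libraries, and the 87-bp copy lay below the 3731-bp copy in every library, at 7588, 20959 and 16637 against 25592, 21401 and 21036 RPM per kb. The 1602-bp copy held 6535 ± 1271 RPM per kb and the 82-bp copy of scaffold 12 held 4522 ± 1809. At the lower end, the 1604-bp copy held 581 ± 369 and the 375-bp copy 525 ± 25.0 RPM per kb. In PC9 the 3731-bp copy stood alone at 14755 ± 13621 RPM per kb, with 1080 ± 942 in the 493-bp copy next.

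The comparison of PC9 with PC15 asks how the 2 monokaryons differ. All 10 copies were higher in PC9 by edgeR's quasi-likelihood test, against 16.9% of the 633 TE copies tested that were called higher and 29.4% called lower. The 4 copies with 0 reads in PC15 and the 137-bp copy passed the filter on low reads through other groups. They could hardly be called lower than PC15, so their calls add little to the count. The 3731-bp copy had a log2 difference of 9.79 (SE 1.30, edgeR adjusted p = 3.07e-05), the 1602-bp copy 5.42 (SE 0.87, adjusted p = 0.000155) and the 1453-bp copy 4.26 (SE 1.01, adjusted p = 0.00301). The 1604-bp copy had 6.63 (SE 1.23, adjusted p = 0.000507), and the 493-bp copy 5.63 (SE 1.02, adjusted p = 0.000481). For the 137-bp copy the read ratio of PC9 to PC15 was 63.5, with a 95% counting interval of 11.3 to 2521 from 1 read in PC15. Its fitted log2 difference was 5.07 with all libraries and 3.86 without PC9 replicate 1 (edgeR adjusted p = 0.00646 and 0.0188).

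A floor of 3 reads summed over the 3 PC15 libraries (1.17 RPM) bounds the fold for the 4 copies with 0 reads there. The level over the PC9 libraries was at least 70.1-fold higher for the 375-bp copy and at least 148-fold higher for the 82-bp copy of scaffold 12. It was at least 66.2-fold higher for the 82-bp copy of scaffold 2 and at least 13.6-fold higher for the 87-bp copy. These bounds rest on PC9 replicate 1: without it they were at least 17.7-fold for the 375-bp copy, at least 2.88-fold for the 82-bp copy of scaffold 12 and at least 4.11-fold for that of scaffold 2, from 43, 7 and 10 reads. The 87-bp copy, with reads in replicate 1 alone, overlapped PC15, and its call (adjusted p = 0.0264) was lost without PC9 replicate 1, where it has 0 reads, and without PC15 replicate 1, 2 or 3 (adjusted p = 0.0808, 0.0585 and 0.0572). Without PC9 replicate 1 the 82-bp copy of scaffold 2 also fell short (log2 difference 4.81, edgeR adjusted p = 0.0663). The other 8 copies were called higher without that library too, against 10.8% of TE copies called higher and 44.3% lower, among them the 3731-bp copy at 8.68 and the 1453-bp copy at 1.65.

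The median log2 difference over the 10 copies was 6.34, or 5.84 with the 4 copies set at their bound, beside -1.14 over all tested TE copies, -5.65 over 17 copies of the Helitron class HELPO and 0.68 over 14 LINE copies. Without PC9 replicate 1 the fitted median over the 10 copies was 4.63, or 4.14 over the 9 copies with a fold once those at 0 reads in PC15 were set at their bound, beside -3.43 over all tested TE copies. Scaling within the TE table by TMM moved the median of all TE copies to 1.54 and DESeq2 moved it to 0.56. Relative to the median of all copies, the TIR median was 7.49 with library totals, 7.30 with TMM and 7.40 with DESeq2. This subtraction takes out most of the scaling, so such values come out alike by construction, here and in the later comparisons. The split of all calls was 107 higher and 186 lower with library totals, and 231 higher and 111 lower with TMM.

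HyB against PC15 gave the same picture: all 10 copies were higher by edgeR, against 19.6% of TE copies called higher and 3% lower, and no HyB library overlapped a PC15 library for any copy. Again the 4 copies at 0 reads in PC15 and the 137-bp copy, at 1 read there, passed the filter through other groups. Their calls add little to the count. The log2 difference was 9.42 (SE 1.28, adjusted p = 8.12e-05) for the 3731-bp copy, 7.20 (SE 1.16, adjusted p = 0.000414) for the 1453-bp copy and 6.61 (SE 0.92, adjusted p = 8.12e-05) for the 1602-bp copy. For the 4 copies at 0 in PC15, the HyB level was at least 66.7-fold to at least 252-fold higher. The median was 9.38, or 7.33 with those 4 at their bound, beside 0.91 over all TE copies. PC15 serves as the baseline of both comparisons, so that they are not independent.

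HyB against PC9 asks how the mated dikaryon differs from the parent in which TIR small RNA was the higher. By edgeR 3 copies were higher in HyB, near the background of 33.2% of TE copies called higher, with 2.21% called lower. These were the 137-bp copy (log2 difference 4.26, SE 1.14, adjusted p = 0.00779), the 87-bp copy (5.28, SE 1.49, adjusted p = 0.0121) and the 1453-bp copy (2.94, SE 0.95, adjusted p = 0.0220). The 1453-bp call was lost without PC9 replicate 2, PC9 replicate 3 or HyB replicate 3 (adjusted p = 0.0685, 0.0709 and 0.0723). The 3731-bp copy did not pass (-0.36, SE 0.89, adjusted p = 0.790).

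This comparison rested on PC9 replicate 1 and on the scaling. Without that library 8 copies were called higher, all but the 3731-bp and 493-bp copies, against 59.7% of TE copies called higher and 2.08% lower. With TMM 1 copy was higher and 2 were lower, against 19.1% and 18.8% of TE copies. With DESeq2 3 were higher and 2 lower, against 25.5% and 20.4%. Under both of those scalings 6 of the 10 copies had a negative difference, among them the 3731-bp copy at -2.77 with TMM, against 2 of 10 with library totals. Relative to all TE copies, the TIR median was -0.81 with library totals, -1.26 with TMM and -1.29 with DESeq2.

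N001 mycelium against HyB compares 2 dikaryons in the same tissue. By edgeR no copy passed, and 1 copy, the 1602-bp copy, had an unadjusted p under 0.05 (log2 difference 1.76, SE 0.74, adjusted p = 0.118). Over all TE copies 1.11% were called higher and 14.8% lower. Of the 10 differences 9 were positive, and for 7 copies every N001 mycelium library lay above every HyB library. The 3731-bp, 1453-bp and 1602-bp copies were among the 7. The shares of all TE copies that did so were not counted, and the copies may share reads. These counts therefore show nothing particular to TIR copies. With TMM 8 copies were higher, against 15.1% of TE copies called higher and 15.1% lower, and with DESeq2 7 were, against 14% and 19.2%. The TIR median was 1.37 beside -0.33 over all TE copies, 2.54 beside 0.75 with TMM and 2.13 beside 0.30 with DESeq2. The TIR median was thus positive under each scaling, while the calls did not hold. Relative to all copies it was 1.69 with library totals, 1.79 with TMM and 1.82 with DESeq2, a likeness that follows from the subtraction.

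Across fruiting in N001, TIR small RNA showed no change that passed. In primordium against mycelium and in fruitbody against primordium 0 of 10 copies were called by edgeR or with TMM or DESeq2 scaling, 0 had an unadjusted p under 0.05, and 0% of all TE copies were called by edgeR in either direction. The median log2 difference was 0.52 from mycelium to primordium and -0.12 from primordium to fruitbody. The 82-bp copy of scaffold 2 varied widely between replicates, at 442, 4214 and 4372 RPM in primordium and 715, 998 and 1565 RPM in fruitbody.

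The levels of the 10 copies were compared across the 18 small RNA libraries by Spearman's rho, as a description, since the points share depth and the zeros of PC15. Over the 45 pairs of copies rho ran from 0.52 to 0.99 with a median of 0.76. Without PC15, over 15 libraries, it ran from 0.18 to 0.99 with a median of 0.61. Of 649 TE copies with enough reads, those most like the 3731-bp copy were not TIR copies. They were a Gypsy_30 copy on scaffold 1 (3824718 to 3825107, rho 0.97), a Gypsy_5 copy on scaffold 2 (351273 to 355033, rho 0.96) and a Gypsy_17 copy on scaffold 4 (473986 to 474702, rho 0.95).

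Among the TIR copies, the 1453-bp and 1602-bp copies came next in likeness, both at a rho of 0.90 and at ranks 13 and 14. The 375-bp copy stood at rank 27 (rho 0.87) and the remaining TIR copies at ranks 41 to 127, with the 137-bp copy last at 0.66. The median rho was 0.62 over 12 DIRS copies, 0.15 over 526 Gypsy copies and -0.12 over 17 HELPO copies.

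Messenger RNA set PC15 apart in the other direction: reads of TIR copies came almost entirely from PC15. TE copies as a whole also had more mRNA reads there, at 319639 to 422440 per library against 26671 to 96145 in the other groups. The 10 copies held 284, 138 and 215 mRNA reads in the PC15 libraries, or 10.4, 5.89 and 9.11 RPM, and 0 to 9 reads in each other library. They were a small share of TE mRNA even in PC15, at 0.0672%, 0.0432% and 0.0612% of TE reads. Reads fell in 5 copies, and the 375-bp, 137-bp, 87-bp and both 82-bp copies had 0 mRNA reads in all 18 libraries. Those 5 copies, the shortest of the 10, did have small RNA reads. At this mRNA depth, 0 reads in so short a copy cannot be told from a low level.

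The 1602-bp copy had most mRNA, with 155, 61 and 96 reads in PC15, and between 0 and 3 in each other library. Since it lies wholly inside a Gypsy_5 copy, these reads could belong to either element. The 1453-bp copy had 48, 45 and 59 reads in PC15 and 0 or 1 elsewhere. The 493-bp copy had 44, 19 and 30 reads in PC15, 2 reads in fruitbody replicate 1 and 0 in every other library. In these copies PC15 did not overlap with any other group.

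The 3731-bp copy, first in small RNA, had 31, 12 and 24 mRNA reads in PC15, 3, 6 and 0 in primordium, and 0 to 2 in each other library. The 1604-bp copy had 6, 1 and 6 in PC15 and 0 to 2 elsewhere. Per mapped reads, PC15 levels were 4.11 ± 1.53 RPM for the 1602-bp copy, 2.06 ± 0.392 for the 1453-bp copy, 1.23 ± 0.399 for the 493-bp copy and 0.886 ± 0.329 for the 3731-bp copy (SD, n = 3). The order of copies by mRNA in PC15 was thus not their order by small RNA in the other groups.

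**Figure D3:**
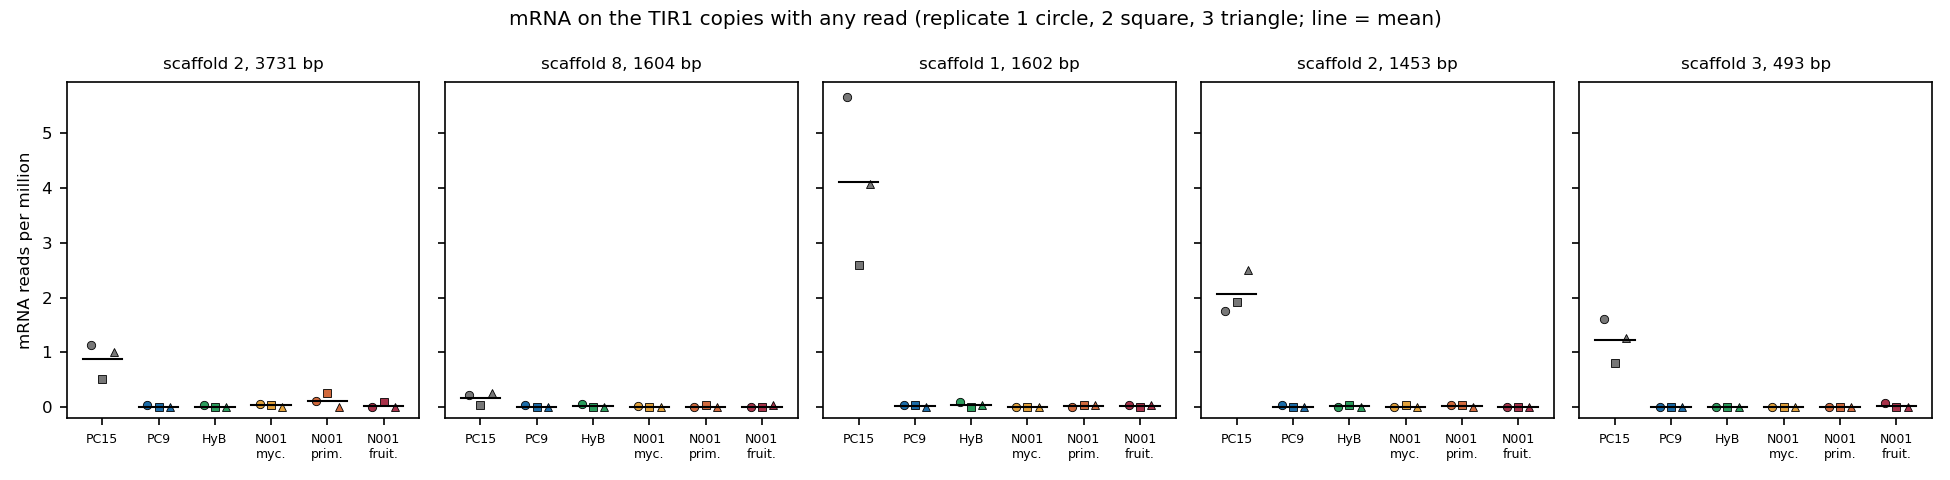
Messenger RNA level in RPM of the 5 TIR copies with any read, one panel per copy, with each point a library of the 6 groups. PC15 stands above the rest in 4 panels, with up to 155 reads per library in the 1602-bp copy, and no library outside PC15 holds more than 6 reads of a copy.

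Between PC9 and PC15, the 4 copies with enough reads were lower in PC9 by edgeR, with log2 differences from -6.97 for the 1602-bp copy (SE 1.06, adjusted p = 1.07e-06) to -5.55 for the 3731-bp copy (SE 1.20, adjusted p = 9.99e-05) among the 3 copies with reads in both strains. They passed the filter through PC15 alone, and 84.8% of the 428 TE copies tested were called lower and 3.74% higher, so the count says nothing particular about TIR copies. Under the other scalings only the 1602-bp copy entered the test. Its difference was -3.27 with TMM (adjusted p = 0.00313), where 26.1% of TE copies were called higher and 58.9% lower, and -1.36 with DESeq2 (adjusted p = 0.351), where 33.4% were called higher and 37.3% lower. As read ratios of PC15 to PC9, the 1602-bp copy had 150, with a 95% counting interval of 41.2 to 1244, and the 1453-bp copy had 146 (25.8 to 5808). The 493-bp copy, at 0 reads in PC9 against a floor of 3, was at least 29.8-fold lower there.

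HyB had as few mRNA reads of these copies as PC9. The same 4 copies were lower than in PC15, with 73.4% of TE copies called lower and 4.44% higher. For the 1602-bp copy, which alone entered the other scalings, the difference was -3.71 with TMM (adjusted p = 0.000615), against 37.6% of TE copies called lower and 24.2% higher. With DESeq2 it was -2.06 and did not pass (adjusted p = 0.124), against 12.4% lower and 46.5% higher. HyB held 4, 1, 1 and 0 reads in all for the 1602-bp, 1453-bp, 3731-bp and 493-bp copies. The median log2 difference of all TE copies against PC15 was -3.66 in HyB and -7.36 in PC9 with library totals, -0.38 and -3.56 with TMM, and 1.35 and -1.63 with DESeq2. With library totals the TIR copies with reads in both groups stood between -6.69 and -5.54 in HyB. Between HyB and PC9, where 43.7% of TE copies were called higher and 5.37% lower, 0 of the 4 passed.

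In the N001 comparisons 0 of the 4 copies passed by edgeR either. For N001 mycelium against HyB 1 copy, the 1602-bp copy, had an unadjusted p under 0.05, beside 1.64% of TE copies called higher and 37.6% lower. For primordium against mycelium and fruitbody against primordium 0 had one. The backgrounds were 0.467% higher and 2.34% lower in the former, and 0% in the latter. At 0 to 9 TIR reads per library, changes between levels this low could not be resolved.

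CG methylation, the percent of methylated cytosines in CG context over a copy, was available for the 1602-bp, 3731-bp, 137-bp, 1453-bp, 493-bp and 1604-bp copies. The coverage behind each value is unknown. The 3731-bp copy stood at 26.6%, 27.0% and 28.9% in PC15, 68.4%, 68.0% and 69.6% in PC9, and 51.6%, 50.7% and 48.1% in HyB. It stood at 76.8%, 75.6% and 78.4% in N001 mycelium, 78.9% and 86.0% in primordium, and 77.4%, 84.0% and 81.8% in fruitbody. The 3 mycelia of PC15, HyB and PC9 formed separate steps, and N001 was above all of them in every library.

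The same order held for the 1453-bp and 493-bp copies. The 1453-bp copy measured 11.3% ± 1.43 in PC15, 32.4% ± 2.04 in HyB, 44.4% ± 4.63 in PC9 and 51.3% ± 0.992 in N001 mycelium (SD, n = 3). The 493-bp copy measured 43.9% ± 6.56, 65.8% ± 1.61, 83.1% ± 5.67 and 85.7% ± 3.04 in that order, with PC9 and N001 overlapping. For the 1602-bp copy HyB nearly reached PC9, at 33.6% ± 1.997 against 36.9% ± 1.504, with 12.2% ± 1.61 in PC15 and 45.03% ± 3.12 in N001 mycelium.

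The remaining pair behaved differently. The 137-bp copy was almost fully methylated in both monokaryons and HyB, at 94.25%, 89% and 96.25% in PC15, 97.75%, 94% and 94.75% in PC9, and 96.75%, 94.5% and 95.75% in HyB. It was lower in N001 mycelium, at 80%, 73% and 77.75%, and uneven in primordium (74% and 93.75%) and fruitbody (74.5%, 95.75% and 71.75%). The 1604-bp copy did not separate the monokaryons, at 27.8% ± 2.22 in PC15 and 26.3% ± 4.78 in PC9. It stood at 37.02% ± 3.15 in HyB and 43.8% ± 1.18 in N001 mycelium, and reached 57.3% and 66.4% in single primordium and fruitbody libraries.

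**Figure D4:**
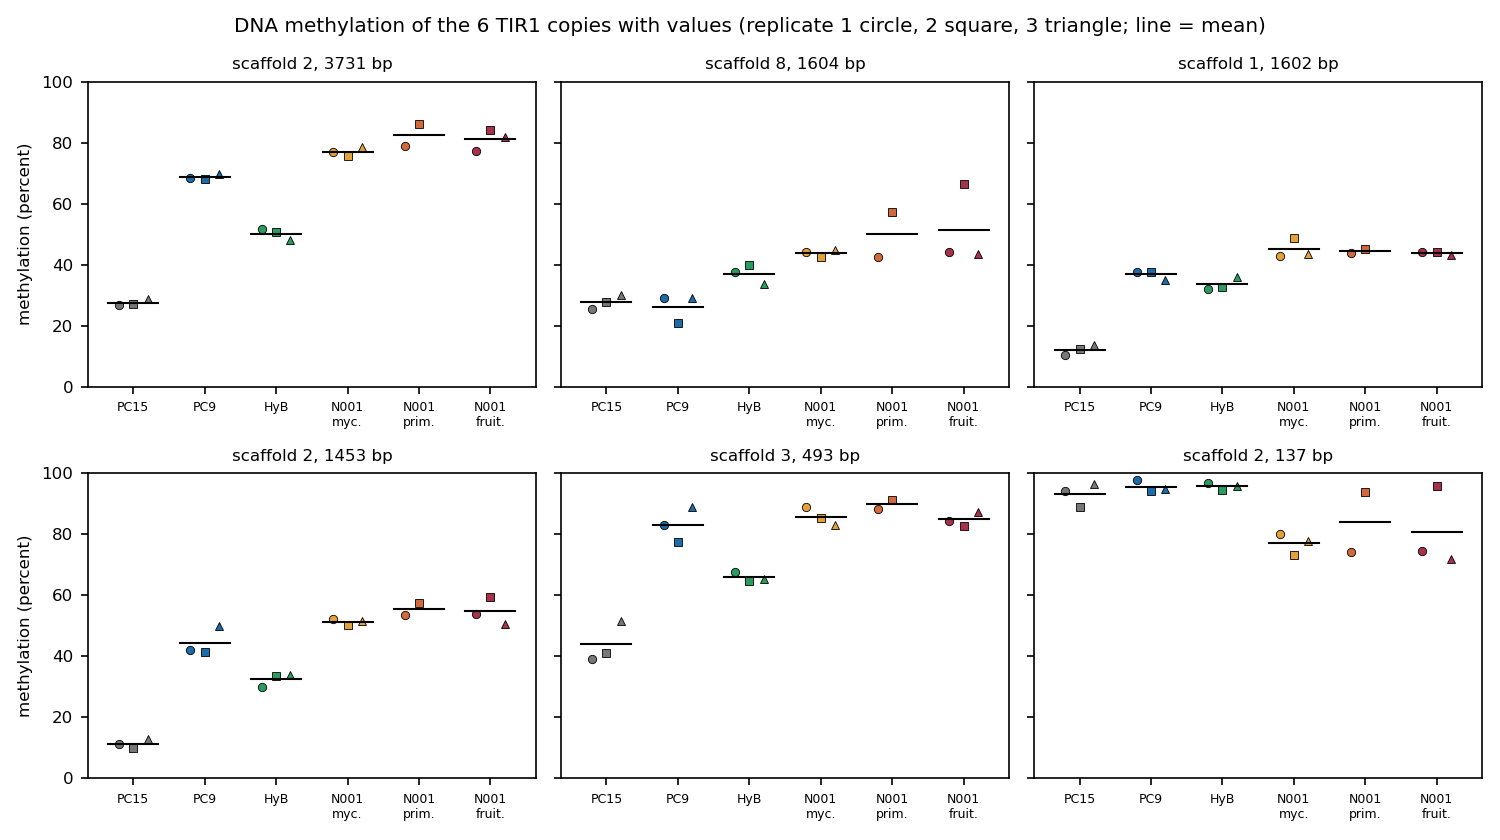
CG methylation in percent of the 6 TIR copies with values, one panel per copy, with each point a bisulfite library of the 6 groups. In 4 panels PC15 is lowest and N001 highest, whereas the 137-bp copy is near 95.5% in PC9 and lower in N001 mycelium.

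In PC9 against PC15, 4 of 6 copies were higher by limma, against 79.4% of 715 TE copies called higher and 4.2% lower, so this share was not above the background. The differences were 41.1 percentage points for the 3731-bp copy (SE 1.89, limma adjusted p = 6.72e-11), 39.1 for the 493-bp copy (SE 3.24, adjusted p = 4.56e-08), 33.1 for the 1453-bp copy (SE 2.45, adjusted p = 1.28e-08) and 24.6 for the 1602-bp copy (SE 1.62, adjusted p = 3.42e-09). The 137-bp and 1604-bp copies did not pass, at 2.33 and -1.48 points. The 1604-bp copy is one for which small RNA was higher in PC9 and a difference in methylation was not detected.

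In HyB against PC15 the same 4 copies were higher, by 21.1 to 22.6 points, against 44.6% of TE copies called higher and 9.51% lower. The TIR median was 21.2 points beside 4.46 over all TE copies. In HyB against PC9, 3 copies were lower by limma, against 76.5% of TE copies called lower and 4.76% higher: the 3731-bp copy by 18.5 points (SE 1.89, adjusted p = 5.36e-07), the 493-bp copy by 17.2 (SE 3.24, adjusted p = 0.000224) and the 1453-bp copy by 12.02 (SE 2.45, adjusted p = 0.00043). The 1602-bp copy missed the threshold (-3.27 points, SE 1.62, limma adjusted p = 0.0776) and passed without HyB replicate 3 (-4.41 points, adjusted p = 0.0325).

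Set against the midpoint of its parents, HyB lay within a few points for the 3731-bp, 137-bp, 493-bp and 1453-bp copies, at 2.07, 1.33, 2.35 and 4.53 points above it. It lay 9.05 points above for the 1602-bp copy and 9.99 points above for the 1604-bp copy. N001 mycelium, by contrast, lay 16.8 to 28.9 points above the midpoint for 5 copies, and the 137-bp copy differed from it by -17.4 points. These are values with no test of their own.

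In N001 mycelium against HyB, 4 copies were higher by limma against 76.9% of TE copies, by 26.8 points for the 3731-bp copy, 19.9 for the 493-bp copy, 18.9 for the 1453-bp copy and 11.5 for the 1602-bp copy. The 137-bp copy was lower by 18.75 points (difference -18.75, SE 5.81, limma adjusted p = 0.00886), where 3.08% of TE copies were called lower. In primordium against mycelium 0 of 6 copies passed and 1, the 3731-bp copy, had an unadjusted p under 0.05 (5.54 points, SE 2.11, limma adjusted p = 0.724), with 0.14% of TE copies called higher. In fruitbody against primordium 0 passed and 0 had an unadjusted p under 0.05, with 0.14% called lower. With 2 primordium libraries, changes of a few points could not be resolved for copies such as the 137-bp copy, whose fruitbody libraries spanned 71.75% to 95.75%.

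Genes around the copies were also followed, all known by number alone. Within 2 kb lay 8 genes, beside 4 of the 10 copies. Around the 3731-bp copy were 165473 inside it, 1081471 at a distance of 602 bp, 1034940 at 1228 bp, 1034872 at 1650 bp and 1035385 at 1963 bp. Beside the 137-bp copy was 1034296 (722 bp), beside the 1453-bp copy 1074562 (1848 bp) and beside the 493-bp copy 1101253 (944 bp).

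Of these genes, 7 had methylation in every library. By limma 6 of them were higher and 1 lower in PC9 than in PC15, against 6.47% and 2.56% of 11140 genes. Gene 165473 lies inside the 3731-bp copy, so its methylation is not separate evidence from that of the copy. Genes 1081471, 1034940 and 1034872 lie beside the same copy and are not separate places. The background holds all genes, whereas 79.4% of TE copies were called higher in PC9. Genes beside other TE copies were not tested as a set, so the counts show nothing particular to TIR copies. These limits hold for the other methylation comparisons too. Gene 1074562 beside the 1453-bp copy measured 2%, 0% and 2.5% in PC15, 95%, 89.8% and 93.5% in PC9, and 64.2%, 67.8% and 74.7% in HyB, with no overlap between groups (PC9 minus PC15 91.25 points, SE 2.79, limma adjusted p = 1.6e-13). Gene 1081471 beside the 3731-bp copy measured 17.8%, 18.3% and 17.99% in PC15, 74.6%, 74.9% and 75.8% in PC9, and 40.5%, 39.0% and 36.8% in HyB (57.1 points, SE 1.61, adjusted p = 6.17e-14). In PC9 gene 1074562 stood above the 1453-bp copy beside it in every library.

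Gene 165473 rose by 47.6 points (adjusted p = 1.36e-13), 1034872 by 65.8 (8.45e-06), 1034940 by 59.7 (0.000212) and 1034296 by 11.5 (0.00316). Gene 1101253 beside the 493-bp copy was 5.20 points lower in PC9 (difference -5.20, limma adjusted p = 0.0289). That call was lost without any 1 of PC15 replicates 1, 2 and 3 and PC9 replicates 1 and 3 (adjusted p = 0.0634 to 0.156). It is the gene whose copy gained most methylation after the 3731-bp copy, so gene and copy differed in direction there.

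Over the other comparisons, 6 genes were higher in HyB than in PC15 (5.73% of genes), 1 was higher and 4 were lower in HyB than in PC9 (2.12% and 6.11%), and 4 were higher in N001 mycelium than in HyB (5.88%). In HyB against PC15, 1034296 lost its call without PC15 replicate 1 or 2 or HyB replicate 1 or 2, and 1034940 without PC15 replicate 2 or HyB replicate 2 or 3. In HyB against PC9, 1034872 lost its call without PC9 replicate 2 or 3 or HyB replicate 1. Gene 1035385, at 8.39% ± 4.09 in PC15, 13.1% ± 2.92 in HyB and 68.2% ± 13.1 in N001 mycelium, had no PC9 value and was not tested.

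**Figure D5:**
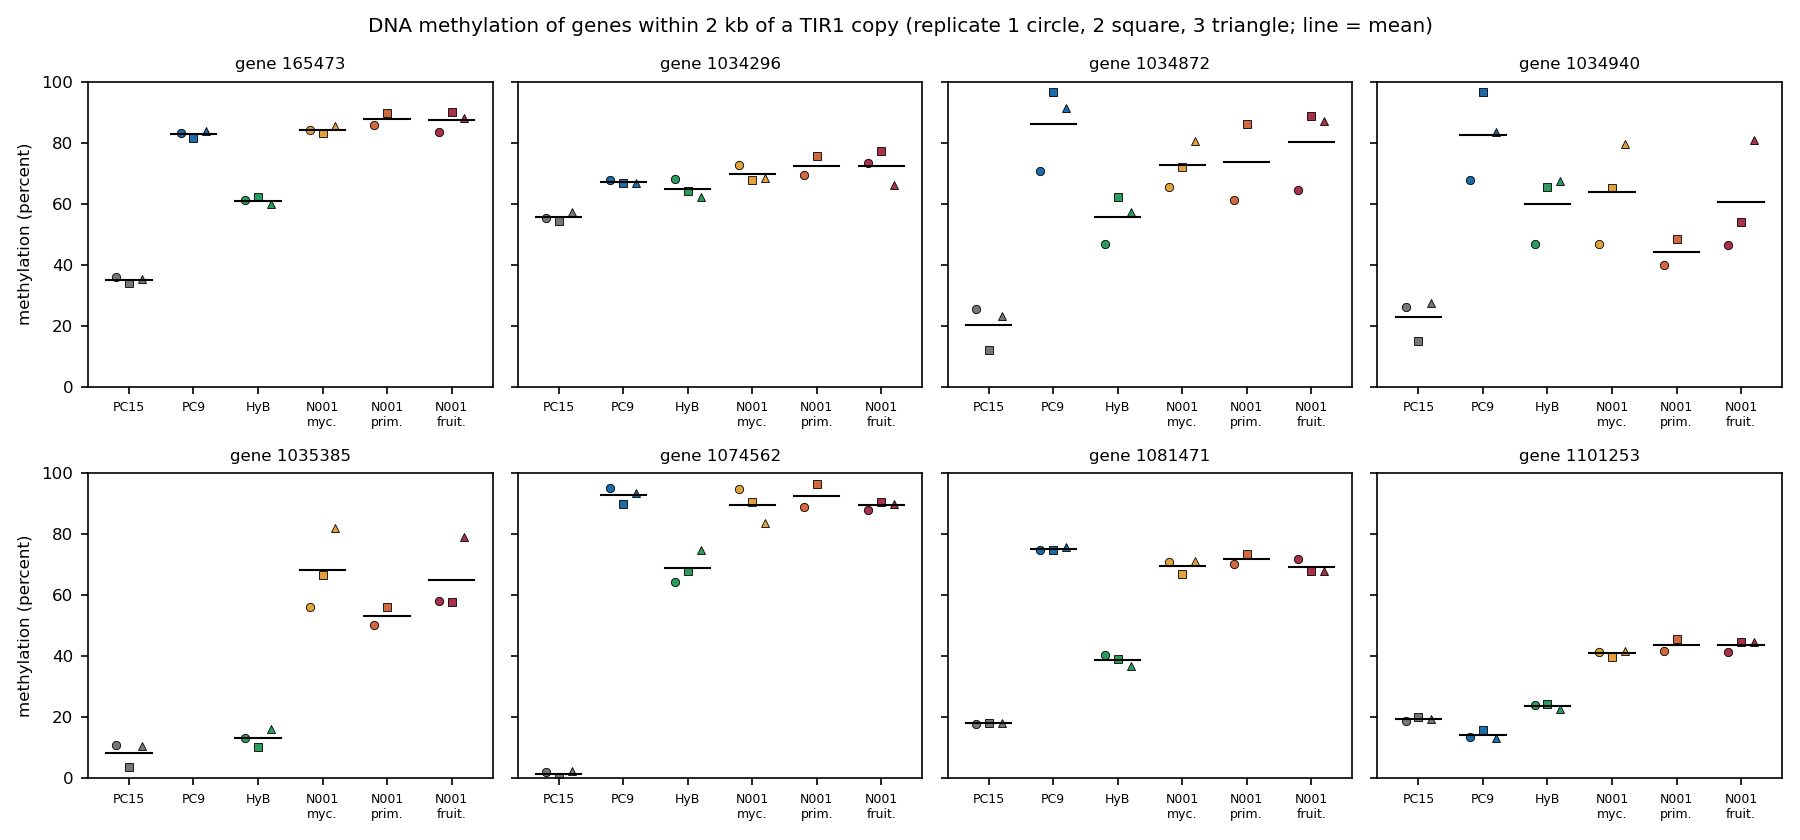
CG methylation in percent of the 8 genes within 2 kb of a TIR copy, one panel per gene, with each point a bisulfite library of the 6 groups. PC9 stands above PC15 in 6 panels, most for gene 1074562 (89.8% or more in PC9 against at most 2.5% in PC15), and gene 1035385 has no PC9 value.

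Small RNA of these genes was tested for 6 of the 8. Besides 165473, gene 1074562 was higher in PC9 than in PC15 by edgeR (adjusted p = 1.21e-08), with 0 reads in PC15, 1051, 22.7 and 0 RPM in PC9 and 710, 1229 and 1064 RPM in N001 mycelium. Its PC9 level came from replicate 1, and the PC9 and PC15 libraries overlapped at 0. Gene 1101253 was lower in PC9 (edgeR adjusted p = 2.81e-07), at 11.4, 56.2 and 26.6 RPM in PC15 against 0.174, 0 and 0 in PC9, and reached 108, 870 and 959 RPM in HyB. The counts were 2 higher and 1 lower, beside 13.1% and 7.2% of 6809 genes.

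In HyB against PC15, 5 genes were higher in small RNA (10.4% of genes), and in N001 mycelium against HyB 1 was (3.38%). In HyB against PC9, 2 were higher and 1 lower (10.4% and 9.63%). The lower one, 1074562 (log2 difference -2.64, edgeR adjusted p = 0.0209), lost its call with the replicate block (adjusted p = 0.0855) and without HyB replicate 3 (0.0641). It turned to 2.22 higher without PC9 replicate 1 (0.0300). Gene 1081471 passed as higher without PC9 replicate 1 or HyB replicate 1 (adjusted p = 0.00688 and 0.0196).

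Messenger RNA of the neighbouring genes was low. For 3 genes, 1034940, 1034872 and 1035385, it sufficed for a test, and 0 passed by limma or had an unadjusted p under 0.05 in any of the 6 comparisons. Over 10928 genes, 16.1% were called higher and 30.6% lower in PC9 against PC15, 19% and 28% in HyB against PC15, and 23.3% and 14.9% in HyB against PC9. The shares were 3.61% and 7.47% in N001 mycelium against HyB, 15.8% and 21.8% in primordium against mycelium, and 0.0458% and 0.229% in fruitbody against primordium. The RPKM of these 3 genes, reads per kb of gene scaled like RPM, ranged from 0.0852 to 19.2 over the libraries. In each group but PC15, replicate 1 was the lowest library for all 3 of them. Gene 165473 inside the 3731-bp copy had an RPKM of 0.449, 0.105 and 0.522 in PC15 and at most 0.174 elsewhere. Gene 1101253 had 0.870, 0.632 and 0.505 in PC15 and at most 0.0757 elsewhere. Both were below the minimum RPKM of 1 and were not tested.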

How the data were processed

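Per the submitters' processing notes, FastQC and STAR were used for mRNA and BS-Seeker2 for bisulfite reads. The counting program, strand setting and annotation are not given in the sources used here. The authors deposited read counts per TE copy for mRNA and small RNA, read counts per gene for small RNA, RPKM per gene for mRNA, and CG methylation as a fraction per gene or TE copy, per the file headers. The fraction was multiplied to percent here.

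Gene RPKM values were whole reads scaled by gene length: 95.5% to 95.8% per library were whole within 0.01 reads, which gave the library totals for mRNA. Small RNA totals were gene plus TE reads. Counts were tested with edgeR 4.0.16 (quasi-likelihood, library totals, default filter) in R 4.3.3, and methylation percent and gene log2 of RPKM plus 1 with limma 3.58.1. Genes entered when 3 or more libraries reached an RPKM of 1. All 6 groups entered each fit. Tests were two-sided, adjusted by Benjamini-Hochberg over all TE copies or genes of a comparison, with a threshold of 0.05. Calculations were tested on simulated data. Counting intervals are exact at 95% and cover counting error only.

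All TIR copies are named, with the 3 TE copies most like the 3731-bp copy and the genes within 2 kb. The copies and lists were chosen with earlier results of these data known. Alternatives were TMM, DESeq2 1.42.0, no filter, each replicate left out, a replicate block, a logit scale and genes within 5 kb. Same-numbered replicates deviated together, as correlations over TE copies above 0.1 in every pair, in small RNA of HyB and PC9 (0.129 to 0.204), mRNA of N001 mycelium and HyB (0.261 to 0.365) and mRNA of fruitbody and primordium (0.233 to 0.557). In the same comparisons replicate 2 of 1 group against replicate 3 of the other reached 0.160, 0.329 and 0.486. The deviation was thus not shared by number alone. This likeness comes from the data and not from a label. Methylation of fruitbody and primordium also exceeded 0.1, at 0.515 and 0.685, but had only 2 same-numbered pairs and is left out of this list. In mRNA 2 of 18 replicate pairs (HyB 2 and 3, primordium 2 and 3) differed by little over sampling noise, the lowest chi-square per degree of freedom being 1.56 against 26.1 to 523 in the others, and were kept separate. In small RNA replicates 2 and 3 of each group were closest, at 2.43 to 6.44 against 11.5 to 153 in pairs with replicate 1, and were also kept separate.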

Additional observations from a re-analysis of the deposited data

How the results depend on the processing

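Counts of called TIR copies that moved by more than 1.5 times were few. Small RNA calls in HyB against PC9 went from 3 to 5 with DESeq2 and ranged from 2 to 8 with 1 replicate left out, and in N001 mycelium against HyB from 0 to 8 with TMM and 7 with DESeq2. With DESeq2 the 375-bp copy turned in HyB against PC9 from a log2 difference of 0.72 to -1.33 (adjusted p = 0.00831), while the median of all TE copies moved from 1.98 to 0.25. Messenger RNA calls in PC9 against PC15 and in HyB against PC15 went from 4 to 1 with TMM and 0 with DESeq2. Under those scalings 1 copy, the 1602-bp copy, passed the filter, and with DESeq2 its difference did not pass the test. Leaving out 1 replicate gave 8 to 10 copies for small RNA in PC9 against PC15, and 3 to 4 for methylation in HyB against PC9. The replicate block changed no count of TIR calls (3 copies for small RNA in HyB against PC9), and it changed 1 call among the neighbouring genes, given with that gene. Scaling to totals without the gene inside the 3731-bp copy, and merging like libraries, both added after seeing the data, changed no count.

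With genes within 5 kb in place of 2 kb, 20 genes were covered. Not all of them were tested in each assay, and the counts here join both directions. Methylation calls became 11 in PC9 against PC15 (6.47% of all genes higher and 2.56% lower) and 10 in HyB against PC15 (5.73% and 1.98%). They became 8 in HyB against PC9 (2.12% and 6.11%) and 7 in N001 mycelium against HyB (5.88% and 1.64%). As within 2 kb, the counts show nothing particular to TIR copies. Messenger RNA calls became 1 in each of the 3 comparisons of PC15, PC9 and HyB. Over all genes 16.1% were higher and 30.6% lower in PC9 against PC15, 19% and 28% in HyB against PC15, and 23.3% and 14.9% in HyB against PC9. Small RNA calls became 1 in primordium against mycelium (1.85% of all genes higher and 4.14% lower). Depth limits mRNA outside PC15, at 0 to 9 TIR reads per library, and the coverage behind methylation is unknown.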
